A study of Schizosaccharomyces pombe with 2 samples.

Results

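Glycine is broken down in mitochondria by the glycine cleavage system, and 6 genes for this system and for the exchange of serine and glycine were followed in fission yeast, Schizosaccharomyces pombe, on 2 spotted arrays. They were chosen by name: gcv1, gcv2, gcv3, dld1 and the serine hydroxymethyltransferase genes shm1 and shm2. All 6 had probes and passed the filter on dim probes, out of 5006 gene probe names on the array and 4903 genes tested. The probe for gcv1 is called n313 on the array, which RefSeq's gene table lists as a synonym of gcv1 (SPAC31G5.14). The genes gcv2 (SPAC13G6.06c), gcv3 (SPBP19A11.01) and shm1 (SPAC24C9.12c) were spotted under their systematic names, and dld1 (SPAC1002.09c) and shm2 (SPAC18G6.04c) under their symbols.

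The study compared a wild-type (WT) strain carrying pDUAL-Ssn6, a plasmid that expresses the transcriptional corepressor subunit Ssn6, with the WT strain carrying the empty pDUAL plasmid. Both cultures were growing logarithmically at 30 °C in minimal medium without uracil (MM-URA), which selects for the plasmid. Both cultures were hybridised together on each array, and by the labels the dyes were swapped between arrays, the Ssn6 culture carrying Cy3 on the first. The series mentions 2 RNA preparations without assigning them to arrays, so the spread between arrays may be technical. The promoter on the plasmid, the age of the cultures and other alleles of the strain are not stated in those sources.

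The scanner files name their channels A and B, and neither the labels nor the headers say which culture or dye each channel held. A ratio here is that of channel B to channel A, on the log2 scale after loess normalization, with no direction assigned to the cultures. Transcript of the overexpressed gene, ssn6, had a mean ratio of 2.04 ± 0.19 over the arrays (SD, n = 2) and was brighter in channel B on both. The arrays' ratios had a Pearson correlation of 0.805 across the 4903 genes, which are not independent replicates. In limma, 1368 of 4903 genes passed an adjusted p of 0.05, which is 27.9% of them (11.3% higher in channel B, 16.6% lower). The median ratio of the genes tested was 0.01.

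The cleavage system has 4 proteins. The P protein (gcv2) removes the carboxyl group of glycine and hands the rest to a lipoyl arm on the H protein (gcv3). The T protein (gcv1) moves the remaining carbon onto tetrahydrofolate and frees ammonia, and the L protein, dihydrolipoamide dehydrogenase (dld1), reoxidises the arm. The L protein also serves the pyruvate and 2-oxoglutarate dehydrogenase complexes. Serine hydroxymethyltransferase (shm1, shm2) converts serine and tetrahydrofolate to glycine and the same one-carbon folate, in either direction. In budding yeast the GCV genes are known to be induced by glycine.

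The genes for the H and P proteins were higher in channel B on both arrays, the gene for the shared L protein was lower on both, and the gene for the T protein lay near or above the all-gene median. The ratios were 2.19 ± 0.27 for gcv3, 1.38 ± 0.03 for gcv2, 0.35 ± 0.38 for gcv1 and -1.55 ± 0.31 for dld1 (mean ± SD, n = 2 arrays). The hydroxymethyltransferase genes had 0.61 ± 0.42 for shm1 and -0.18 ± 0.11 for shm2. These genes were selected with this contrast known, so their ratios are a description and carry no test. In the fit across all genes, 4 of the 6 (gcv2, gcv3, shm1 and dld1) passed the adjusted p, against the 27.9% of all genes, and nothing is read from that count.

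**Figure D1:**
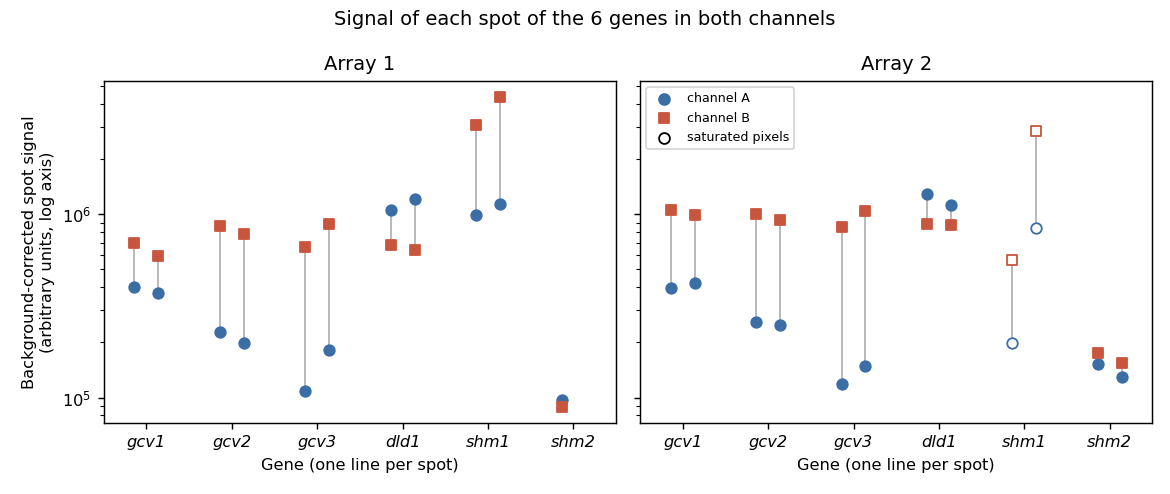
Background-corrected signal (arbitrary units, log axis) of each spot of the 6 genes in channel A (circles) and channel B (squares) on each array, with a line joining the channels of a spot and open symbols for spots with saturated pixels. All spots of gcv1, gcv2, gcv3 and shm1 were brighter in channel B, and all spots of dld1 were brighter in channel A; the second shm2 spot of array 1 gave no signal.

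The H protein gene gcv3 had the highest ratio of the 6. On array 1 its spots read 108480 and 182822 in channel A against 661828 and 881836 in channel B, in the scanner's arbitrary units. On array 2 they read 118928 and 148767 in channel A against 855186 and 1047222 in channel B. Before normalization each of the 4 spots was brighter in channel B, by between 4.82-fold and 7.19-fold. After loess the ratio was 2.004 on array 1 and 2.38 on array 2, a mean of 4.57-fold, and it ranked 12th from the top of the 4903 genes. The array 1 spots differed from each other by 0.51 after loess, more than the median difference of 0.19 between spots of a gene on that array, and those of array 2 differed by 0.10.

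The P protein gene gcv2 gave the closest values between arrays. Channel A read 228517 and 197390 on array 1 and 258742 and 247668 on array 2. Channel B read 863480 and 781209 on array 1 and 1007839 and 936023 on array 2. Loess left 1.41 on array 1 and 1.36 on array 2. This difference of 0.05 is smaller than the median difference of 0.24 between arrays over all genes tested, and the mean corresponds to 2.61-fold. With print-tip loess the arrays lay further apart, at 0.995 on array 1 and 1.63 on array 2 (SD 0.45).

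For the T protein gene gcv1 the arrays differed. Channel A read 402292 and 371465 on array 1 and 398324 and 423454 on array 2, so the readings of that channel were close on both. Channel B read 701454 and 593320 on array 1 and 1049697 and 993985 on array 2. Every spot was brighter in channel B before normalization, by 0.74 (log2) on array 1 and 1.31 on array 2 as means of the spots. Loess took away 0.66 and 0.70, which left ratios of 0.08 on array 1 and 0.62 on array 2. The gene did not pass the adjusted p, and its SD of 0.38 exceeded its mean of 0.35. With median centring in place of loess its ratio was 0.80 and it passed. With print-tip loess it had -0.08 on array 1 and 0.37 on array 2, a mean of 0.15, and did not pass.

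The L protein gene dld1 ran the other way. Channel A read 1056177 and 1205086 on array 1 and 1282687 and 1122007 on array 2. Channel B read 682240 and 636222 on array 1 and 883190 and 879324 on array 2. Before normalization the ratios were -0.78 and -0.44, and after loess they were -1.77 on array 1 and -1.33 on array 2. The mean was 2.93-fold lower in channel B, with rank 152 from the bottom of the 4903 genes. Loess subtracted 0.99 and 0.88 at this brightness, and with median centring the ratio was -0.84.

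**Figure D2:**
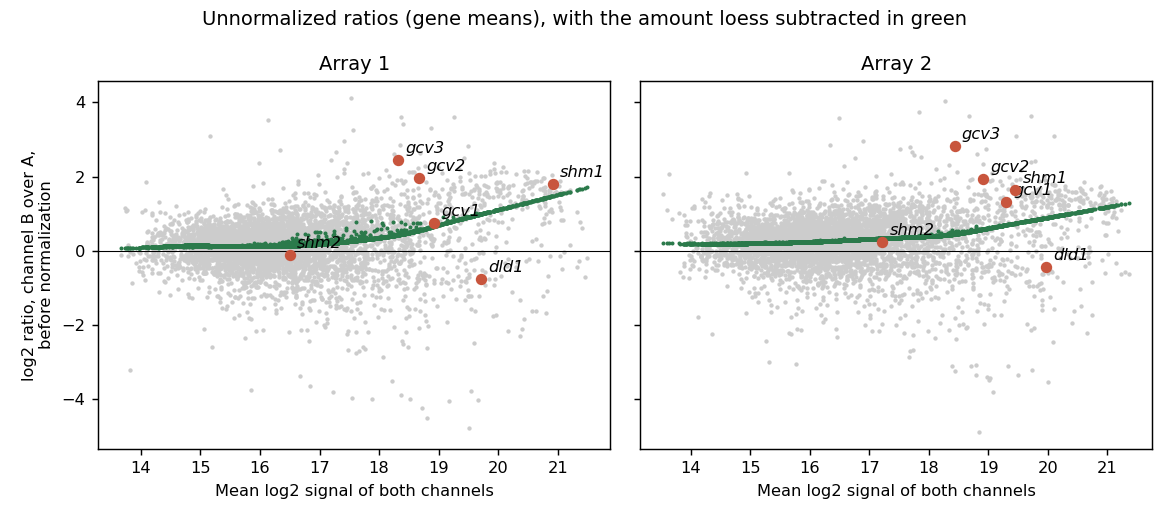
Ratio of channel B over channel A before normalization (log2) against the mean log2 signal of both channels, for the genes tested (grey, one point per gene) and the 6 genes (red), with the amount that loess subtracted in green. The trend rises above 0 among the brighter genes on both arrays, and gcv3 and gcv2 lie above it, dld1 below it and shm2 close to it.

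The hydroxymethyltransferase gene shm1 was brighter in channel B at every spot. On array 1 its spots read 990300 and 1143289 in channel A against 3076839 and 4389380 in channel B. On array 2 they read 197522 and 837250 against 563951 and 2858665, and both array 2 spots held saturated pixels. The unnormalized ratios were close, 1.79 on array 1 and 1.64 on array 2, whereas the loess ratios were 0.32 and 0.90. Loess subtracted 1.47 on array 1 and 0.74 on array 2, where the spots entered the trend at a lower brightness. The saturation factor of these array 2 spots was 0.1325 and 0.6429. Divided by pixel area and by that factor, their channel B signal was 51280 and 52935 per pixel, beside 38947 and 52255 per pixel on array 1. The headers do not give the factor's formula. With every signal divided by the factor, an alternative chosen after seeing the data, shm1 had 0.36 on array 1 and 0.50 on array 2, with a mean of 0.43, and did not pass. It passed with print-tip loess (0.75) and with median centring (1.48). It did not pass without the filter on dim probes or with the scanner's median-pixel ratio, and without saturated spots it had no value. A ratio for shm1 therefore differs with the handling of bright spots. Its channel B excess before normalization was seen on both arrays, but includes the trend among brighter genes that loess subtracted.

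The other hydroxymethyltransferase gene, shm2, showed little difference between channels. On array 1 its single measured spot read 96930 in channel A and 88521 in channel B, and its second spot gave no signal. On array 2 the spots read 152594 and 130178 in channel A against 175701 and 154697 in channel B. The loess ratios were -0.26 on array 1 and -0.11 on array 2, and the gene did not pass. Its arrays differed by 0.15, less than the median difference of 0.24 between arrays over all genes tested. One array 2 spot carried the flag X in channel A, and with spots flagged C in both channels only the ratio was -0.17.

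**Figure D3:**
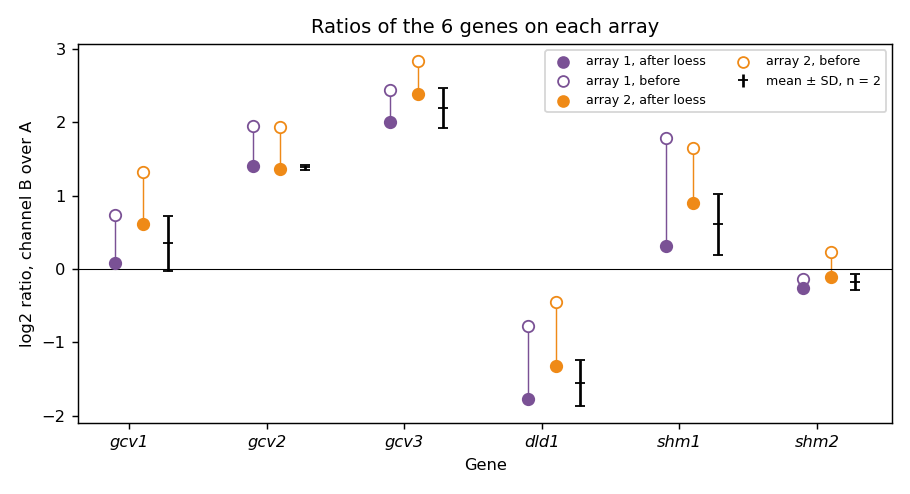
Ratio (log2, channel B to channel A) of the 6 genes on array 1 (purple) and array 2 (orange), before (open) and after (filled) loess, with the mean ± SD of the normalized ratios beside them (n = 2 arrays). The ratios of gcv3 and gcv2 stayed above 1 on both arrays after loess, those of dld1 lay below -1, and gcv1 and shm1 were the genes whose arrays differed by more than 0.5.

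Of the 12 protein-coding genes next to the 6 in the genome 11 were measured, and 1 passed the adjusted p, beside the 27.9% of all genes. It was mrp10, next to shm1, at 0.62 ± 0.01 (adjusted p = 0.0215). The neighbours of gcv2 were trs33 (-0.23 ± 0.11) and the ribosomal protein gene rps601 (0.12 ± 0.13). Those of gcv3 were SPBC19C7.11 (0.14 ± 0.16) and SPBP19A11.02c (0.28 ± 0.27), and neither pair passed. Over the 11 the ratios ran from -0.38 to 0.62.

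The gene lists below are those of pathways that meet the cleavage system, and their background is the all-gene share of 27.9%. Together they hold 37 genes, all measured, of which 20 passed in limma, 9 as higher and 11 as lower in channel B. Their median was 0.003, near the all-gene median of 0.01, and the lists differed in direction, as given for each. The lists were chosen with earlier results of these data known, so nothing is read from the count of 20. The shares also differed with the filter on dim probes. With control spots that had signal only, empty and buffer spots gave 260 of 529 genes and 8 of 16 list genes. The set with E. coli spots then gave 894 of 2062 genes and 20 of 30 list genes.

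Genes of the pyruvate dehydrogenase complex, which shares the L protein, were lower in channel B after loess, and those of the 2-oxoglutarate dehydrogenase complex, which shares it too, did not pass. Of 7 genes for the pyruvate and 2-oxoglutarate dehydrogenase complexes and lipoate attachment, 4 were lower, 3 missed the threshold, and the list median was -0.80. The 4 were all of the pyruvate dehydrogenase complex: lat1, the dihydrolipoamide acetyltransferase core (-1.88 ± 0.12, adjusted p = 9.77e-05), pdx1, the protein X component (-1.72 ± 0.05, adjusted p = 0.00014), pda1, the E1 alpha subunit (-1.40 ± 0.23, adjusted p = 0.00053), and pdb1, the E1 beta subunit (-0.80 ± 0.32, adjusted p = 0.0114). The ratio of lat1 was -1.96 on array 1 and -1.79 on array 2, and that of pdx1 was -1.76 and -1.69. The 2-oxoglutarate dehydrogenase genes kgd1 (-0.52 ± 0.23, adjusted p = 0.0514) and kgd2 (-0.26 ± 0.20) did not pass, nor did the lipoate-protein ligase gene aim22 (0.34 ± 0.04). With 2 of the 4 other sets of control spots tried for the dim-probe filter, kgd1 passed (adjusted p = 0.0397 and 0.0491). With print-tip loess kgd1 passed as lower too (-0.53, adjusted p = 0.0453). With median centring lat1 had -1.18, and pda1 (-0.47, adjusted p = 0.0542) and pdb1 (-0.18, adjusted p = 0.455) did not pass, while pdx1 stayed at -1.67.

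Of the genes whose enzymes lead to serine or glycine, ser3, ser1 and gly1 were lower in channel B and ser2 did not pass. The calls of ser3 and ser2 differed with print-tip loess, as given below. Of 6 genes of serine, glycine and threonine metabolism, 4 passed as lower and 1 as higher, and the list median was -1.24. On the route from 3-phosphoglycerate to serine, the dehydrogenase gene ser3 had -1.37 ± 0.33 (adjusted p = 0.000794) and the aminotransferase gene ser1 had -1.33 ± 0.41 (adjusted p = 0.0012). The phosphatase gene of the last step, ser2, had 0.52 ± 0.27 (adjusted p = 0.0561), and passed with 1 of the 4 other control sets for the filter (adjusted p = 0.0429). With print-tip loess ser2 passed as higher (0.56, adjusted p = 0.0343). The threonine aldolase gene gly1, whose enzyme splits threonine to glycine, had -1.15 ± 0.12 (adjusted p = 0.0012), and the threonine ammonia-lyase gene tda1 had -1.34 ± 0.04 (adjusted p = 0.000516), though its enzyme breaks threonine down without making glycine. The higher gene was sry1, for serine racemase, at 1.54 ± 0.16 (adjusted p = 0.000295). Its values were 1.65 on array 1 and 1.42 on array 2. The ser3 ratio was -0.33 (adjusted p = 0.159) with median centring and -0.20 (adjusted p = 0.398) with print-tip loess, and did not pass in either.

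The genes for enzymes that interconvert one-carbon folates had small ratios. Of 8 folate genes 3 passed as higher and 1 as lower, and the list median was 0.02. Higher were thf1, for a C1-tetrahydrofolate synthase (0.60 ± 0.24, adjusted p = 0.0323), and dfr1, for dihydrofolate reductase (0.51 ± 0.10, adjusted p = 0.0479). So was met9, for methylenetetrahydrofolate reductase (0.50 ± 0.01, adjusted p = 0.0491). The 5-formyltetrahydrofolate cyclo-ligase gene fau1 was lower (-0.67 ± 0.17, adjusted p = 0.0173). The second reductase gene, met11, had 0.003 ± 0.19. The calls of dfr1 and met9 lay close to the threshold and were lost with print-tip loess (adjusted p = 0.0777 and 0.0757) and without the filter on dim probes (adjusted p = 0.053 and 0.0541), and with empty and buffer spots alone as its controls (adjusted p = 0.0528 and 0.0539).

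Users of the one-carbon units and of glycine were split. Of 4 methionine cycle genes 2 passed, both as higher, and the list median was 0.84. The S-adenosylmethionine synthetase gene sam1 had 2.39 ± 0.38 (adjusted p = 4.88e-05), SPBC8D2.18c had 1.18 ± 0.36 (adjusted p = 0.00193), and the methionine synthase gene met26 had 0.26 ± 0.04 (adjusted p = 0.254). Saturated pixels occurred in 4 of 4 spots of sam1 and of met26 and in 3 of 4 of SPBC8D2.18c. With signals divided by the saturation factor sam1 had 2.06 (adjusted p = 0.000138), SPBC8D2.18c had 0.48 and did not pass (adjusted p = 0.0876), and met26 had -0.22. With median centring met26 had 0.90 and passed (adjusted p = 0.00261). It passed with print-tip loess too, at 0.49 (adjusted p = 0.0443).

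Of 10 purine synthesis genes 2 passed as higher and 2 as lower, and the list median was 0.09. The genes for the formyl-folate steps, ade5 (0.87 ± 0.09, adjusted p = 0.00503) and ade10 (0.51 ± 0.04, adjusted p = 0.0454), were the 2 higher ones. The lower ones were ade3 (-1.25 ± 0.07, adjusted p = 0.000776) and ade7 (-1.01 ± 0.20, adjusted p = 0.0028), for steps that use glutamine and aspartate. Neither ade4 (0.12 ± 0.28), whose enzyme also uses glutamine, nor ade2 (-0.26 ± 0.41), whose enzyme also uses aspartate, passed. The ade9 gene, listed here with the purine genes, had 0.21 ± 0.10 (adjusted p = 0.373) and did not pass. The ade1 gene, whose enzyme adds glycine to the ring precursor, had 0.06 ± 0.05. The ade10 ratio was 1.22 with median centring, and 0.23 with print-tip loess, where it did not pass (adjusted p = 0.281), nor did it without the filter on dim probes (adjusted p = 0.0502). Of the other glycine users, the glutathione synthetase gene gsa1 was higher (0.80 ± 0.16, adjusted p = 0.00799), and hem1, for 5-aminolevulinate synthase, did not pass (-0.19 ± 0.17).

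**Figure D4:**
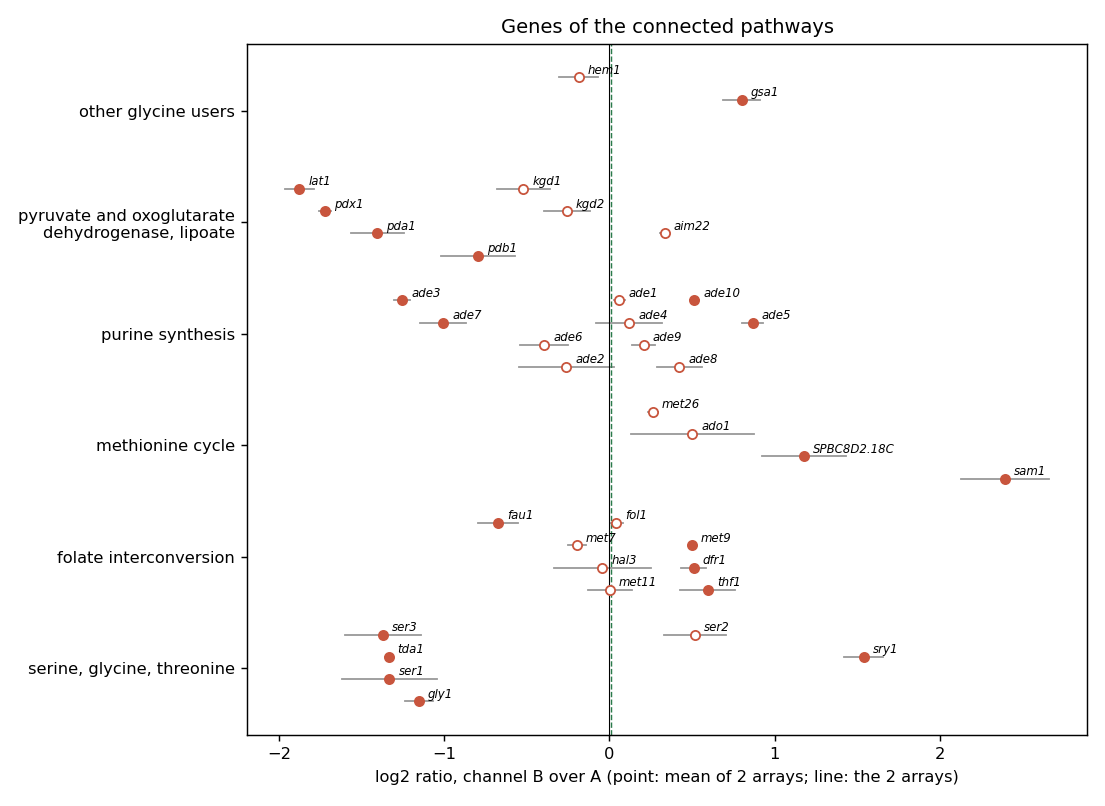
Mean ratio (log2, channel B to channel A) of each gene of the 6 pathway lists (points), with a line between its values on the 2 arrays; filled points passed an adjusted p of 0.05 in limma, and the dashed line is the median of all genes tested (0.01). The 4 pyruvate dehydrogenase genes lie together on the low side, between -1.88 and -0.80, and sam1, whose spots all held saturated pixels, is drawn at 2.39.

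Genes outside the 6 whose ratios lay closest to the mean of gcv1, gcv2 and gcv3 (1.16 on array 1 and 1.45 on array 2) were sought among 4897 genes. By Euclidean distance over the 2 arrays, the 5 nearest were fes1 (0.05), plr1 (0.06), hit1 (0.07), lcf2 (0.09) and pmm1 (0.10). With 2 arrays this likeness is one of size only. The mean itself lies above gcv1, whose ratios were 0.08 and 0.62.

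**Figure D5:**
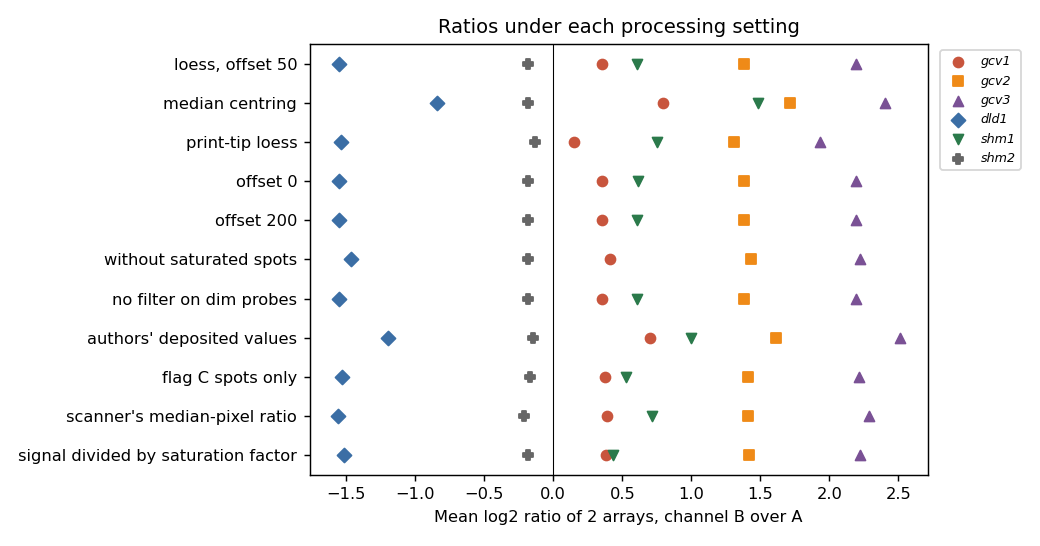
Mean log2 ratio of the 6 genes (n = 2 arrays) with loess and an offset of 50 and under each of 10 other processing settings. The ratios of gcv2 ran from 1.31 to 1.72 and those of gcv3 from 1.93 to 2.51, while shm1 ran from 0.43 to 1.48 and has no value without saturated spots.

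The order of the ratios, from gcv3 through gcv2, shm1, gcv1 and shm2 to dld1, rests on neighbours that are not all separated. The values of gcv3 (2.004 and 2.38) and gcv2 (1.41 and 1.36) did not overlap between arrays, and those of gcv2 lay above both values of shm1 (0.32 and 0.90). The values of shm1 and gcv1 (0.08 and 0.62) overlapped. Both values of gcv1 lay above those of shm2 (-0.26 and -0.11), and both of shm2 above those of dld1 (-1.77 and -1.33). With print-tip loess instead, the values of gcv2 (0.995 and 1.63) and shm1 (0.35 and 1.15) overlapped. So did those of gcv1 (-0.08 and 0.37) and shm2 (-0.26 and -0.01).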

How the data were processed

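The authors deposited 1 scanner file per array and a single table of values. Per the file headers, the scanner files hold background-corrected intensity per spot in channels A and B, background intensity, a linear ratio of A over B, a saturation factor (a fraction) and the spot's pixel area, given here as another measure. The scanner software is not named in the sources used here. The deposited value table holds log10 ratios after lowess, per the series' design text. Its scale and its direction (B over A) were found by setting it against the scanner values (r = 0.913 and 0.939). Its median was 0.01 per array; rows after 5760 of 11520 did not follow the spot order (r = 0.0355 and 0.0566) and were not used, and values at its floor (261 and 145 spots) were treated as missing.

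Gene spots numbered 10016, of which 9803 on array 1 and 9995 on array 2 had signal. An offset of 50 was added, log2(B/A) was normalized by loess (span 0.3, controls at weight 0), and replicate spots were averaged per probe name. Genes were dropped where, on either array, both channels lay below the 95th percentile of empty, buffer and E. coli control spots, or where signal was lacking (103 genes). This set of control spots, zeros included, was chosen after seeing how many genes several sets left: empty and buffer spots alone left 4999 genes, and only those of them with signal left 529. The mean ratio over the arrays was set against 0 per gene in limma 3.58.1 (R 4.3.3, with version 1.17.8 of the package data.table), two-sided, Benjamini-Hochberg adjusted over all genes, with 1 residual and 7.51 prior degrees of freedom, which limits the precision. Named were the 6 genes, the list genes, the neighbours, the 5 nearest genes and ssn6; pathway lists and members were chosen with earlier results of these data known. Genes were named through the ASM294v3 gene table (4777 of 5006 probe names), which also gave the order of neighbouring genes. Promoter motifs planned for the 6 genes were not searched, because promoter sequence was not used here. Alternatives are described in the closing section.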

Additional observations from a re-analysis of the deposited data

How the results depend on the processing

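Offsets of 0 and 200, print-tip loess, median centring, no filter on dim probes, no saturated spots, spots flagged C, the scanner's median-pixel ratio and signals divided by the saturation factor (the last 3 chosen after seeing the data) gave between 1273 and 1585 genes past the adjusted p, against 1368. They gave 3 to 5 of the 6 genes, against 4, and 17 to 20 of the 37 list genes, against 20. Without saturated spots only 5 of the 6 and 34 list genes had a value, of which 3 and 17 passed. With spots flagged C only, 35 list genes had a value and 19 passed. From the authors' deposited table, used here for a single spot per gene and array in most cases, 0 genes passed in limma, among them 0 of the 6 and 0 of the 37, while 1790 genes had an unadjusted p under 0.05, against 2028; the 6 ratios kept their signs there.

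The control spots behind the filter on dim probes were chosen after seeing the numbers of genes left, and 4 other sets, also added after seeing the data, leave every ratio as it is. Empty and buffer spots gave 1292 of 4999 genes past the adjusted p, and adding luciferase spots to the set used gave 1384 of 4773. With control spots that had signal only, empty and buffer spots gave 260 of 529 genes and 8 list genes, of 16 left, and the set with E. coli spots gave 894 of 2062, since fewer genes were tested. In each of the 4 sets 4 of the 6 genes passed, shm1 among them, and shm2 dropped out of the sets with signal only; with no filter shm1 did not pass.

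With the sign of array 1 turned, as the labelled dye swap would need if channel A were one dye throughout, 0 genes passed in limma, 6 had an unadjusted p under 0.05, and 0 of the 6 genes, 0 of the 37 and 0 positive ratios on both arrays (against 4 genes) were left. The ratios then were 0.22 for dld1, -0.023 for gcv2, -0.0286 for ade10, -0.0621 for ade5, 0.0846 for gly1, 0.0848 for lat1, 0.16 for pda1, 0.22 for pdb1, 0.0339 for pdx1, -0.27 for sam1, 0.29 for ser1, 0.23 for ser3, -0.12 for sry1 and -0.0044 for mrp10. The overexpressed gene ssn6, higher in channel B on both arrays with a mean of 2.04, then had 0.13, and gcv3 had 0.19. Each such value reflects how far the arrays differed, not their mean. With 1 array left out no test could be run, and the single-array ratios stand in the report. The comparison is paired by array, since each ratio sets both cultures of an array against each other, and with a single group of arrays no further block could be added. The number of arrays limits the precision.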
